A study of Mus musculus with 6 samples.

Results

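The pentose phosphate pathway and the cytosolic enzymes that supply NADPH beside it were followed in mouse liver RNA through 10 of the 20726 genes on the array. They were taken by exact gene symbol: G6pdx, Pgls, Pgd and H6pd of the oxidative arm, Rpia, Rpe, Tkt and Taldo1 of the non-oxidative arm, and the NADPH-forming enzymes Me1 and Idh1. Together they have 19 of the 45037 probe sets tested, of which 7 belong to the oxidative arm, 8 to the non-oxidative arm and 4 to Me1 and Idh1. The livers came from male C57BL/6J mice, 6 weeks old and given 1 week of acclimatization before the study, with 8 mice per group. The CTL group received normal chow and the vehicles of every agent. The NASH group was fed from day 0 to day 24 on a diet with 60% of its calories from fat, was injected 4 times with CCl4 at 0.1 ml/kg (days 14, 17, 21 and 24), and received 5 injections of T0901317, an agonist of the liver X receptor, at 2.5 ml/kg (the unit the labels give) between day 20 and day 24. The NASH+ISO group had the same diet and injections and was also given the flavonoid isorhamnetin by mouth at 50 mg/kg per day from day 11 to day 24, while CTL and NASH mice received its vehicle. Diet, CCl4 and T0901317 were given together, so their parts in a difference from CTL cannot be told apart.

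The oxidative arm of the pathway takes glucose 6-phosphate out of glycolysis and turns it into a pentose phosphate, and its dehydrogenases G6pdx and Pgd each pass electrons to NADP to form NADPH. The non-oxidative arm interconverts pentose phosphates and intermediates of glycolysis, so it can supply ribose for nucleotides or return carbon to glycolysis. NADPH is the electron donor for fatty acid and cholesterol synthesis and for the reduction of glutathione and thioredoxin, and in the liver cytosol it also comes from malic enzyme (Me1) and isocitrate dehydrogenase (Idh1).

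For each group 2 arrays of the type Affymetrix MG-430 PM were hybridized, and the values are RMA signals on a log2 scale. By the sample descriptions the 2 arrays of each group are technical repeats. Since no source used here says how many mice went into an array, errors and p-values cover the spread between arrays and not between mice. With 2 arrays a group an exact permutation test cannot go below p = 0.333, so a probe set passed here when the limma fit over all probe sets gave a Benjamini-Hochberg adjusted p under 0.05. The medians of the 6 arrays lay between 3.46 and 3.50, and the arrays of 1 group differed by a median of 0.05 per probe set. Over all genes the median differences from CTL were -0.03 for NASH and -0.01 for NASH+ISO, and NASH+ISO differed from NASH by a median of 0.02. The highest value of 17 control probe sets without a mouse target, 2.90, served as a guide to background, and 64.05% of the probe sets had a mean above it. Of 7 measured hepatocyte markers all lay above that guide, with albumin at group means of 12.50, 12.56 and 12.59, and the liver label was not contradicted. Differences are given in log2 units with their SE, and a level of 1 probe set is never set against that of another, since probes differ in brightness.

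The members moved in different ways. G6pdx, Pgd, Pgls, Taldo1, Rpia, Me1 and Idh1 were higher than CTL in both NASH and NASH+ISO, while H6pd was lower than CTL in both. Between NASH+ISO and NASH, G6pdx rose 4.18-fold and Pgd 1.33-fold to 1.62-fold by its 4 probe sets. H6pd and Tkt rose by less there, and Rpia and Rpe fell. The differences of Me1, Taldo1 and Pgls between these groups did not pass, and the probe sets of Idh1 disagreed.

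Promoter sequences of the members that differed most from CTL are shown first. Whether these members share control at their promoters was not tested. The table of RefSeq promoters of GRCm38.p6 (250 bases before to 50 bases after each start, 300 bases) matched all 10 members with 13 promoters. Capitals mark matches, on either strand, to TGANNNNGC. It is a loose form of the core of the antioxidant response element, a site known to be bound by Nfe2l2 with small Maf proteins. The promoters of G6pdx, of the second start of Pgd and of the first start of Me1 are shown because they hold a match, and that of Rpia because it holds none. The first start of Pgd and the second start of Me1 hold no match and are not shown.
G6pdx, chrX:74428831-74429130, minus strand: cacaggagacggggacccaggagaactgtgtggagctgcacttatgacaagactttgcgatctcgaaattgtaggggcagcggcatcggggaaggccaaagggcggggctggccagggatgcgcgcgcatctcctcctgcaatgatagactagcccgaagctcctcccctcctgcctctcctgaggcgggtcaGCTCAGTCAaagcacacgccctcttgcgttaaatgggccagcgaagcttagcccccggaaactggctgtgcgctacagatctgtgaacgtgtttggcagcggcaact
Pgd, second start, chr4:149166033-149166332, minus strand: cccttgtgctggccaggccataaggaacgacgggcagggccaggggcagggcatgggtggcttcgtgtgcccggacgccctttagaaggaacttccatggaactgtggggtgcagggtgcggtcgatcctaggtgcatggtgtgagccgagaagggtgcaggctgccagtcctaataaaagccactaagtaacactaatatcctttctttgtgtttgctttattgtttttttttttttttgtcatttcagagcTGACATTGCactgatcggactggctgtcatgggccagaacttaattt
Me1, first start, chr9:86695865-86696164, minus strand: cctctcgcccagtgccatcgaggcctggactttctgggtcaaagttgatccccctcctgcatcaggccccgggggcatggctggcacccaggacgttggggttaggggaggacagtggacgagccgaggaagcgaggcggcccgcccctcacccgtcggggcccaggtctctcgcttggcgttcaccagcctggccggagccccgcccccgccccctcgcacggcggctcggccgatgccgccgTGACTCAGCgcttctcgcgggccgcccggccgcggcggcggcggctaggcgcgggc
Rpia, chr6:70792126-70792425, minus strand: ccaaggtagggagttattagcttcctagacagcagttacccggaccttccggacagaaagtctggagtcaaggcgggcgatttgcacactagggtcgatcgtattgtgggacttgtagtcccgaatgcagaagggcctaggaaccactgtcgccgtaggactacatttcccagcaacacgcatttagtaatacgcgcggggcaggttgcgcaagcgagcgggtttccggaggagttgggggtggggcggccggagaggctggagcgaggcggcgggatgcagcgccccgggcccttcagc

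In G6pdx the match TGACTGAGC lies on the opposite strand, with its leftmost base 57 bases before the start. In Me1 the match TGACTCAGC begins 6 bases before the first start, and in Pgd the match TGACATTGC begins at position 4 of the second start. That second start lies inside Pgd, downstream of the first, so this match lies after both starts. Tkt, Taldo1 and the first start of Idh1 also hold a match, with its leftmost base 37, 221 and 8 bases before the start. Counted by promoter, this loose form was found in 6 of the 13 and in 41.3% of the 32851 promoters of all genes, so it is a common match. A stricter form with a fixed C after the TGA (TGACNNNGC) was chosen after the sequences were seen and lies within the first. It was found in 3 of 13 promoters and in 12.4% of all promoters, and a form chosen that way cannot test the members. The 3 are those of G6pdx, of the first start of Me1 and of the second start of Pgd, while the first start of Pgd holds no match. The sterol response element TCACNCCAC was found in 0 of 13 and in 1.24% of all promoters, and the E-box CACGTG in 0 of 13 and in 7.15%. CCAAT was found in 6 of 13 and in 37.4% of all promoters, and the GC box GGGCGG in 10 of 13 and in 35.7%. A match describes letters and not a shown site, and no binding was measured.

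In the oxidative arm, G6pdx and Pgd, the dehydrogenases that form NADPH, rose in NASH and again in NASH+ISO. G6pdx (1448354_PM_at) stood at 4.54 and 4.74 on CTL arrays, 6.35 and 6.20 on NASH arrays and 8.36 and 8.32 on NASH+ISO arrays. The groups stood in the order CTL, NASH, NASH+ISO. The difference was 1.64 ± 0.08 (SE, 2 repeat arrays against 2) in NASH against CTL, 3.11-fold with limma adjusted p = 3.43e-06, and 3.70 ± 0.08 in NASH+ISO against CTL, 13.0-fold with adjusted p = 1.77e-07. Directly between NASH+ISO and NASH it was 2.06 (95% interval 1.88 to 2.24), 4.18-fold with adjusted p = 7.54e-06. Ranked from the top of 20726 genes, G6pdx stood at 5 by its difference from NASH to NASH+ISO, at 9 by that from CTL to NASH+ISO, and at 182 by that from CTL to NASH. Only this probe set names G6pdx alone. A second one (1422327_PM_s_at), shared by G6pdx and its retrogene copy G6pd2, had group means of 1.77, 1.76 and 2.0, below the guide to background in each group, and was not counted.

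Pgd, which makes ribulose 5-phosphate and the second NADPH of the arm, was read by 4 probe sets. The brightest (1436771_PM_x_at) read 7.74 and 7.71 on the CTL arrays, 9.47 and 9.53 on the NASH arrays and 10.18 and 10.21 on the NASH+ISO arrays. All 4 probe sets had the same order of groups, and the share of all probe sets with that order was not counted. In NASH against CTL their differences were 1.77, 1.75, 1.57 and 2.64, or 2.96-fold to 6.21-fold. The last of these belongs to 1423706_PM_a_at, the one of the 4 without the x suffix, which marks probes that may also match other transcripts. It stood at 5.11 and 5.08 on CTL arrays, 7.74 and 7.72 on NASH arrays and 8.12 and 8.16 on NASH+ISO arrays. From NASH to NASH+ISO it also had the smallest of the 4 differences, 0.41 ± 0.04 (1.33-fold, limma adjusted p = 0.00027), against 0.70, 0.69 and 0.62 for the others. By its brightest probe set, Pgd ranked 187 of all genes for this difference, 34 for that from CTL to NASH+ISO and 137 for that from CTL to NASH.

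Pgls, the lactonase between both dehydrogenases, moved less. It read 6.43 and 6.46 on the CTL arrays, 6.77 and 6.78 on the NASH arrays and 6.83 and 6.91 on the NASH+ISO arrays. The NASH and NASH+ISO arrays both stood above CTL, by 0.33 ± 0.04 (limma adjusted p = 0.000561) and 0.43 ± 0.04 (adjusted p = 0.000198). The NASH+ISO to NASH difference of 0.10 (95% interval -0.0037 to 0.195) did not pass (adjusted p = 0.118). H6pd, the dehydrogenase of the endoplasmic reticulum lumen that carries out the first steps of the arm there, went the other way. It stood at 9.53 and 9.55 on CTL arrays, 8.97 and 9.03 on NASH arrays and 9.23 and 9.26 on NASH+ISO arrays. It was the one member lower than CTL, with differences of -0.54 ± 0.04 in NASH (limma adjusted p = 3.62e-05) and -0.30 ± 0.04 in NASH+ISO (adjusted p = 0.00099). NASH+ISO lay between the others, 0.24 ± 0.04 above NASH (adjusted p = 0.00359).

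**Figure D1:**
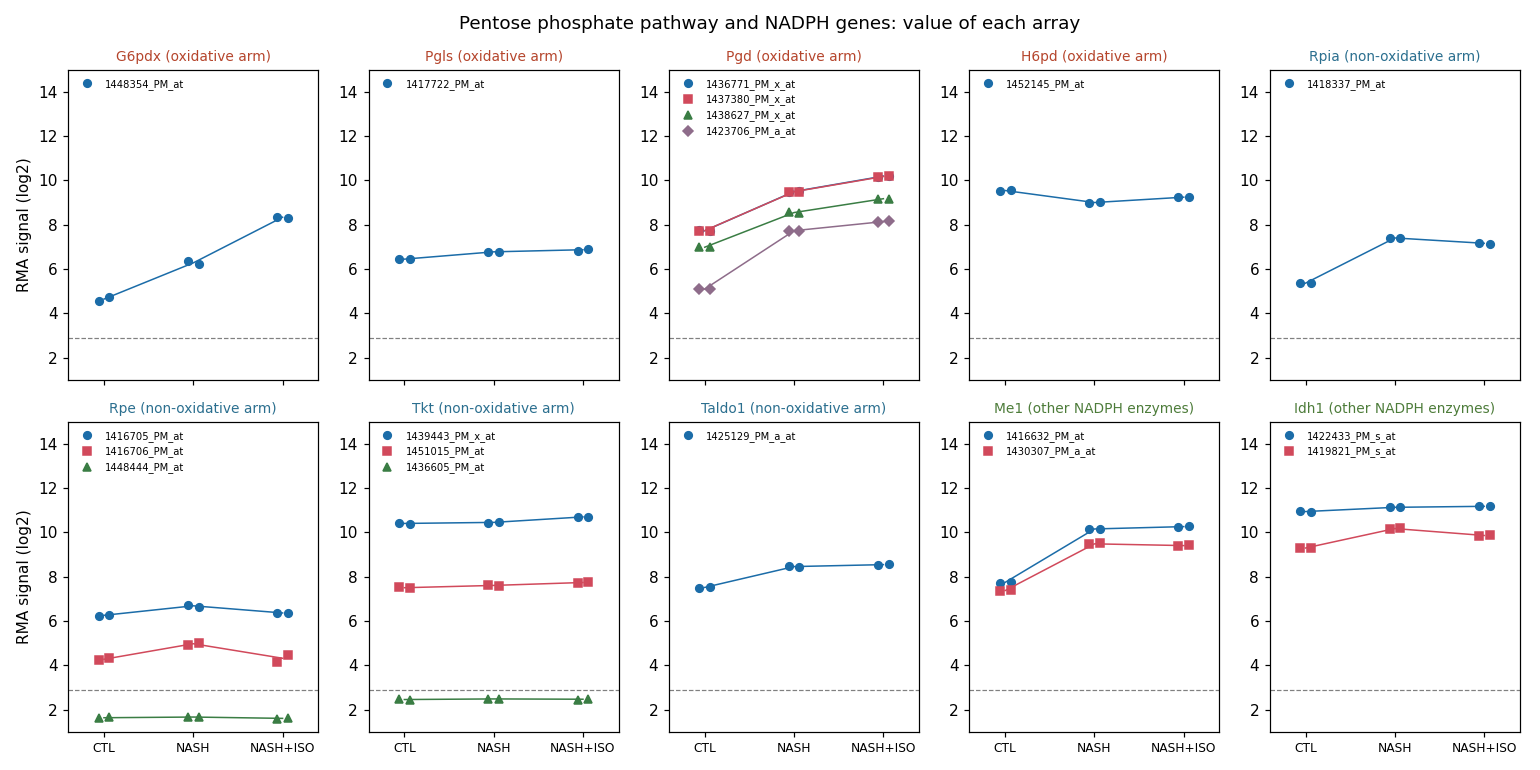
Value of each array (points) for every member probe set, by group; the vertical axis is the RMA signal in log2 units, lines join group means of 2 arrays, and the dashed line is the background guide at 2.90. G6pdx steps up from CTL to NASH and to NASH+ISO, Rpia and Me1 step up once, and 1 probe set each of Rpe and Tkt stays below the dashed line.

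In the non-oxidative arm, Rpia and Taldo1 were higher than CTL in both groups, Rpe rose in NASH and fell back in NASH+ISO, and the Tkt differences were small. Rpia, the isomerase that makes ribose 5-phosphate, read 5.35 and 5.37 on the CTL arrays, 7.40 and 7.40 on the NASH arrays and 7.18 and 7.14 on the NASH+ISO arrays. Both NASH arrays were above both NASH+ISO arrays, and these were far above CTL. The difference was 2.04 ± 0.04 in NASH against CTL, 4.12-fold with limma adjusted p = 8.83e-08, and 1.80 ± 0.04 in NASH+ISO against CTL, 3.48-fold with adjusted p = 2.03e-07. NASH+ISO was at 0.845 of the NASH level, a difference of -0.24 ± 0.04 (adjusted p = 0.00278). Taldo1, the transaldolase, stood at 7.48 and 7.56 on CTL arrays, 8.49 and 8.43 on NASH arrays and 8.54 and 8.56 on NASH+ISO arrays. It rose by 0.94 ± 0.04 in NASH and by 1.03 ± 0.04 in NASH+ISO (1.92-fold and 2.04-fold, limma adjusted p = 3.67e-06 and 4e-06). A difference of 0.09 between NASH+ISO and NASH (95% interval -0.0179 to 0.194) did not pass (adjusted p = 0.167).

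Rpe, the epimerase that makes xylulose 5-phosphate, was read above the background guide by 2 of its 3 probe sets, and both were highest in NASH. The brighter (1416705_PM_at) read 6.25 and 6.27 on the CTL arrays, 6.75 and 6.63 on the NASH arrays and 6.37 and 6.37 on the NASH+ISO arrays. The dimmer (1416706_PM_at) stood at 4.24 and 4.32 on CTL arrays, 4.93 and 5.02 on NASH arrays and 4.16 and 4.48 on NASH+ISO arrays, so that its NASH+ISO arrays lay on both sides of CTL. They rose by 0.43 and 0.70 in NASH against CTL (limma adjusted p = 0.000304 and 0.000966) and fell from NASH to NASH+ISO, with differences of -0.32 and -0.66 (adjusted p = 0.00216 and 0.00217). Against CTL, the NASH+ISO differences of 0.11 and 0.04 did not pass (adjusted p = 0.121 and 0.748), though the first passed with the workbook values (0.12, adjusted p = 0.039) and with a prior that follows the mean level (adjusted p = 0.0469). Without moderation of the spread the fall of the dimmer one from NASH no longer passed (adjusted p = 0.068). The third probe set (1448444_PM_at) lay between 1.61 and 1.67 in the group means, below the guide.

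Tkt, the transketolase, differed little between groups. Its brightest probe set (1439443_PM_x_at) read 10.41 and 10.40 on the CTL arrays, 10.45 and 10.46 on the NASH arrays and 10.69 and 10.72 on the NASH+ISO arrays. The second (1451015_PM_at) stood at 7.52 and 7.49 on CTL arrays, 7.62 and 7.60 on NASH arrays and 7.72 and 7.77 on NASH+ISO arrays. In NASH against CTL the differences of 0.05 (95% interval -0.0418 to 0.137) and 0.10 (0.0082 to 0.200) did not pass (limma adjusted p = 0.336 and 0.0705), and under quantile normalization their signs turned (-0.03 and -0.02). From NASH to NASH+ISO they were 0.25 and 0.13 (adjusted p = 0.00223 and 0.0402). The call of the second ended in several alternatives, with adjusted p = 0.0514 when only the 4 arrays compared were fitted and 0.105 under median centring, while that of the first did not end in any alternative run. The third probe set (1436605_PM_at) lay at 2.46, 2.48 and 2.47, below the guide.

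Me1 and Idh1 make cytosolic NADPH from malate and isocitrate. Me1 (1416632_PM_at) read 7.72 and 7.78 on the CTL arrays, 10.14 and 10.18 on the NASH arrays and 10.23 and 10.30 on the NASH+ISO arrays. All 4 arrays of the treated groups stood more than 2 log2 units above CTL. Its differences were 2.41 ± 0.04 in NASH and 2.52 ± 0.04 in NASH+ISO, 5.32-fold and 5.73-fold (limma adjusted p = 8.31e-08 and 9.2e-08). The other probe set (1430307_PM_a_at) rose by 2.11 and 2.03. Between NASH+ISO and NASH neither passed, at 0.11 (95% interval -0.0003 to 0.212) and -0.08 (-0.176 to 0.0187), with adjusted p = 0.107 and 0.178. The signs of both probe sets differed, so no direction can be given for Me1 between these groups. With quantile normalization, however, the NASH+ISO to NASH differences of 1416632_PM_at, Pgls and Taldo1 were 0.19, 0.17 and 0.16 and passed. With each gene at its brightest probe set, Me1 had the largest difference of the 10 members in NASH against CTL, rank 50 of 20726.

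The 2 probe sets of Idh1, whose s suffix marks probes shared by several transcripts, disagreed. The brighter (1422433_PM_s_at) stood at 10.96 and 10.93 on CTL arrays, 11.14 and 11.13 on NASH arrays and 11.17 and 11.19 on NASH+ISO arrays. The dimmer (1419821_PM_s_at) read 9.31 and 9.29 on the CTL arrays, 10.17 and 10.18 on the NASH arrays and 9.86 and 9.87 on the NASH+ISO arrays. Both rose in NASH against CTL, by 0.19 and 0.88 (limma adjusted p = 0.00488 and 2.36e-06), and in NASH+ISO against CTL, by 0.24 and 0.57 (adjusted p = 0.00218 and 2.9e-05). From NASH to NASH+ISO the dimmer fell by 0.31 (adjusted p = 0.000774), and the brighter, at 0.04 (95% interval -0.0447 to 0.134), did not pass (adjusted p = 0.392). With the probe sets of a gene averaged, Idh1 was lower, at -0.13 (adjusted p = 0.0134), so what Idh1 did between these groups depends on the probe set read.

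**Figure D2:**
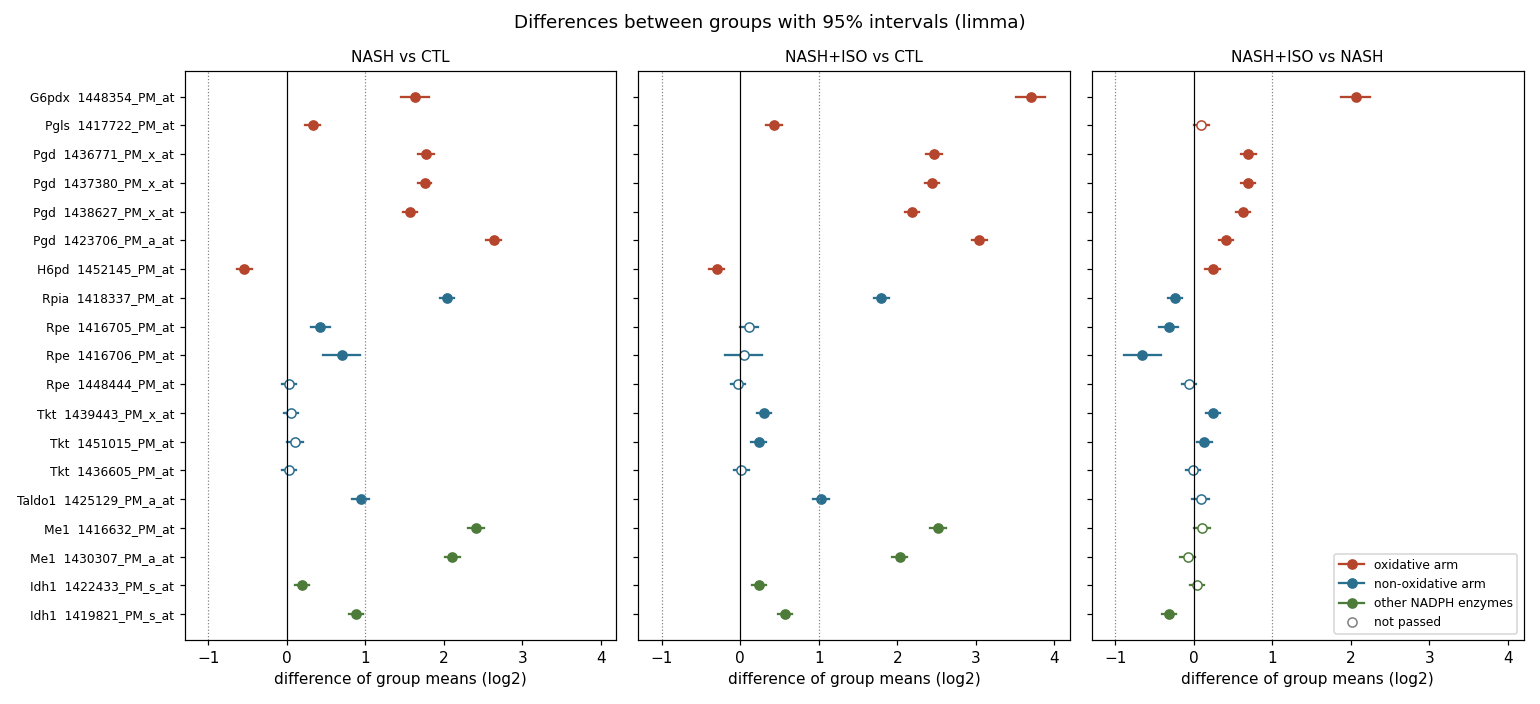
Difference of group means in log2 units (points) with 95% limma intervals (bars) for each member probe set in the 3 comparisons; open points did not pass an adjusted p of 0.05 and dotted lines mark a fold of 2. G6pdx lies apart at 2.06 in NASH+ISO against NASH, where the other members lie between -0.66 and 0.70.

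Counted over probe sets in NASH against CTL, 14 of the 19 were higher and 1 was lower, where 22% and 27.2% of all probe sets were. A fold of at least 2 with an unadjusted p under 0.05, the thresholds of the study, was passed by 8 higher and 0 lower, against 2.49% and 1.11% of all. The 8 are the single probe sets of G6pdx and Rpia, the 4 of Pgd and the 2 of Me1. For NASH+ISO against CTL, 14 were again higher and 1 lower, with 21.2% and 21.5% of all probe sets, and 9 passed the fold upward and 0 downward (1.35% and 0.79% of all), Taldo1 being the addition. For NASH+ISO against NASH, 8 were higher and 4 lower, against 19.5% and 17.7% of all, and only G6pdx passed the fold (0.238% of all upward, 0 members and 0.533% downward). The comparisons with CTL share the CTL arrays, and several probe sets belong to 1 gene.

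With 1 probe set per gene, 8 of 10 members were higher and 1 lower in NASH against CTL, where 24.7% and 28.3% of all genes were. These counts were 8 and 1 between NASH+ISO and CTL, with 23.2% and 23% of all genes. They were 4 and 2 from NASH to NASH+ISO, with 19.9% and 19.8%. By arm, the 4 oxidative genes had a median difference of 0.98, 1.45 and 0.47 in the 3 comparisons in that order, and 3 of 4 were higher each time, with H6pd the one lower in both comparisons with CTL. The 4 non-oxidative genes had medians of 0.69, 0.66 and -0.08, with 3 higher in each comparison with CTL, and 1 higher and 2 lower in NASH+ISO against NASH. Me1 and Idh1 had medians of 1.30, 1.38 and 0.08, and 0 of these 2 passed between NASH+ISO and NASH. Whether the arms differ from each other was not tested.

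Genes around the pathway were read from lists, with 1 probe set per gene. In NASH against CTL, 24.7% of all genes were higher and 28.3% lower. In NASH+ISO against CTL the shares were 23.2% and 23%, and from NASH to NASH+ISO 19.9% and 19.8%. Every list count is to be read beside these shares, and no list was tested as a whole. Of 12 enzymes that use NADPH to make lipids, 11 rose in NASH against CTL (median 1.35, 7 past a fold of 2) and 0 fell. Fasn, the fatty acid synthase, read 8.75, 11.35 and 11.59 in CTL, NASH and NASH+ISO. Sqle, the squalene epoxidase of cholesterol synthesis, rose by 2.72 in NASH and 2.36 in NASH+ISO. The list was split between NASH+ISO and NASH, with 4 higher and 7 lower (median -0.19), Fasn at 0.23 and Sqle at -0.36. The only one past a fold of 2 there, named after its values were seen, was Lbr, a sterol reductase, at -1.37, with group means of 5.39 (CTL), 6.73 (NASH) and 5.36 (NASH+ISO). Against CTL, 9 of the 12 were higher and 1 lower in NASH+ISO (median 1.01).

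Of 13 NADPH-using reductases of redox defence and carbonyl metabolism, 9 rose and 3 fell from CTL to NASH (median 0.51), 6 rose and 4 fell from CTL to NASH+ISO (0.12), and 1 rose and 6 fell from NASH to NASH+ISO (-0.07). Akr1b3, the aldose reductase, differed from CTL by 1.64 in NASH and 1.46 in NASH+ISO, and Ptgr1, a prostaglandin reductase, by 1.06 and 1.23. Glutathione reductase (Gsr) and Nqo1, named after their values were seen, rose by 0.86 and 0.52 in NASH against CTL. Between NASH+ISO and NASH they differed by -0.52 and -0.37, while the 1 gene of the list that rose there was Ptgr1, at 0.17. Of 10 other NADPH-forming enzymes and NAD kinases, 6 rose and 2 fell in NASH (median 0.28), 3 rose and 2 fell from CTL to NASH+ISO (0.11), and 2 rose and 4 fell from NASH to NASH+ISO (0.003). None of the 10 passed a fold of 2 in any of the 3 comparisons. Of 8 genes that supply carbon to Me1 and Idh1, 4 rose and 3 fell in NASH (0.16), 4 rose and 2 fell from CTL to NASH+ISO (0.25), and 3 rose and 1 fell from NASH to NASH+ISO (0.06). Among them Acly, the citrate lyase, rose by 1.04 in NASH and 1.38 in NASH+ISO, and Slc25a1, the mitochondrial citrate carrier, by 1.06 and 0.80.

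On the side of glucose 6-phosphate and glycolysis, 7 of 17 genes rose and 6 fell from CTL to NASH (median 0.11), 11 rose and 3 fell from CTL to NASH+ISO (0.24), and 7 rose and 3 fell from NASH to NASH+ISO (0.09). G6pc, the phosphatase that turns glucose 6-phosphate into glucose, had group means of 8.99 (CTL), 8.32 (NASH) and 9.37 (NASH+ISO), and its 1.06 in NASH+ISO against NASH was the single difference past a fold of 2 there in this list. Of the bifunctional enzymes that regulate phosphofructokinase, Pfkfb1 differed from CTL by 0.71 and 1.38 in NASH and NASH+ISO, and Pfkfb3 by -0.90 and -1.28. Named after their values were seen, Pklr, the liver pyruvate kinase, and Gpi1, the glucose phosphate isomerase, rose between NASH and NASH+ISO by 0.79 and 0.69. The genes that work beside H6pd in the endoplasmic reticulum were also read. Hsd11b1, which uses the NADPH formed there to activate glucocorticoids, fell from CTL by 1.11 on the log2 scale in NASH and by 1.42 in NASH+ISO, and Slc37a4, the glucose 6-phosphate carrier into that compartment, read 8.10, 8.00 and 8.58. Of these 2 genes 0 rose and 1 fell in NASH, and 1 rose and 1 fell in each comparison of NASH+ISO (medians -0.61, -0.47 and 0.14).

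Of 11 paralogs and genes of the ribose side branches, 3 rose and 3 fell from CTL to NASH (median -0.04), 1 rose and 4 fell from CTL to NASH+ISO (0.02), and 3 rose and 4 fell from NASH to NASH+ISO (0.02). The counts in NASH lie near the shares of all genes, 24.7% higher and 28.3% lower. None of the 11 genes passed a fold of 2, and 8 of them had a mean above the guide. G6pd2, Tktl1 and Tktl2, the copies of G6pdx and Tkt, lay below it. Of 7 transcription factors known to act on genes of these pathways, 4 rose and 2 fell against CTL in each treated group (medians 0.40 and 0.41), and 2 rose and 1 fell in NASH+ISO against NASH (-0.01). Srebf1, a regulator of lipid synthesis, rose by 1.38 in NASH and 1.24 in NASH+ISO and was lower in NASH+ISO than in NASH (-0.14). Mlxipl, the carbohydrate response factor ChREBP, and Nfe2l2 (Nrf2), both named after their values were seen, rose by 0.40 and 0.83 in NASH against CTL. From NASH to NASH+ISO, Mlxipl rose by 0.39, and Nfe2l2 at -0.01 did not pass. Bach1, a repressor known to bind the antioxidant response element and also named after its values were seen, had group means of 8.56 (CTL), 7.62 (NASH) and 8.12 (NASH+ISO), with differences of -0.93 in NASH and -0.43 in NASH+ISO against CTL and a rise of 0.50 from NASH to NASH+ISO. The rest of the list was Keap1, higher than CTL by 0.54 in NASH and 0.41 in NASH+ISO, Trp53, at -0.34 and -0.30, and Thrb. Thrb, at -0.16 and -0.18, did not pass against CTL. From NASH to NASH+ISO, Keap1, Trp53 and Thrb did not pass.

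**Figure D3:**
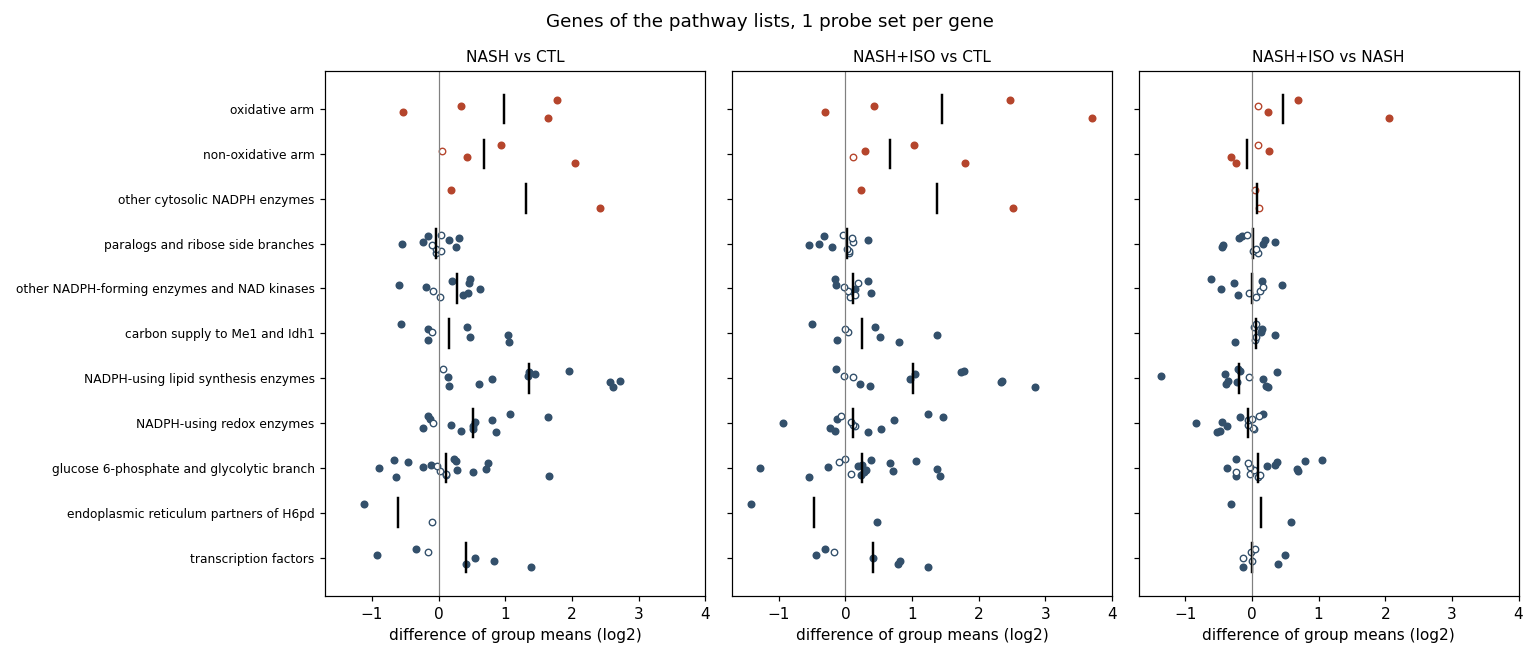
Each point is the difference of group means in log2 units for 1 gene of a list (1 probe set per gene), in the 3 comparisons; red marks the members, open points did not pass an adjusted p of 0.05, and black bars are list medians. The lipid synthesis list has its median at 1.35 in NASH against CTL and at -0.19 in NASH+ISO against NASH, where the oxidative arm has 0.47.

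The genes whose 6 array values, centred on their own CTL mean, lay closest to a member were found among 15179 candidates by Euclidean distance in log2 units. For Me1 they were Rarres1 (distance 0.226), Cd36 (0.259), Ggct (0.262) and Ifi27l2b (0.278). Each stood more than 2 log2 units above CTL in both groups, which follows from their closeness to Me1. For Pgd they were Akr1c18 (0.162), Fabp4 (0.180), Cdkn1a (0.297) and Chrna4 (0.457). The neighbours of G6pdx were farther away: Pdzk1ip1 (0.771), Smoc2 (1.04), Neat1 (1.06) and Cyp17a1 (1.28). From NASH to NASH+ISO these 4 differed by 1.35, 1.41, 1.03 and 0.94, less than the 2.06 of G6pdx. From CTL to NASH+ISO, Smoc2 rose by 3.76 and G6pdx by 3.70. The CTL mean of Smoc2, 2.87, lay below the background guide, so its rise from CTL has only a lower bound and its distance is not exact. These distances over 6 arrays are a description and carry no test.

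**Figure D4:**
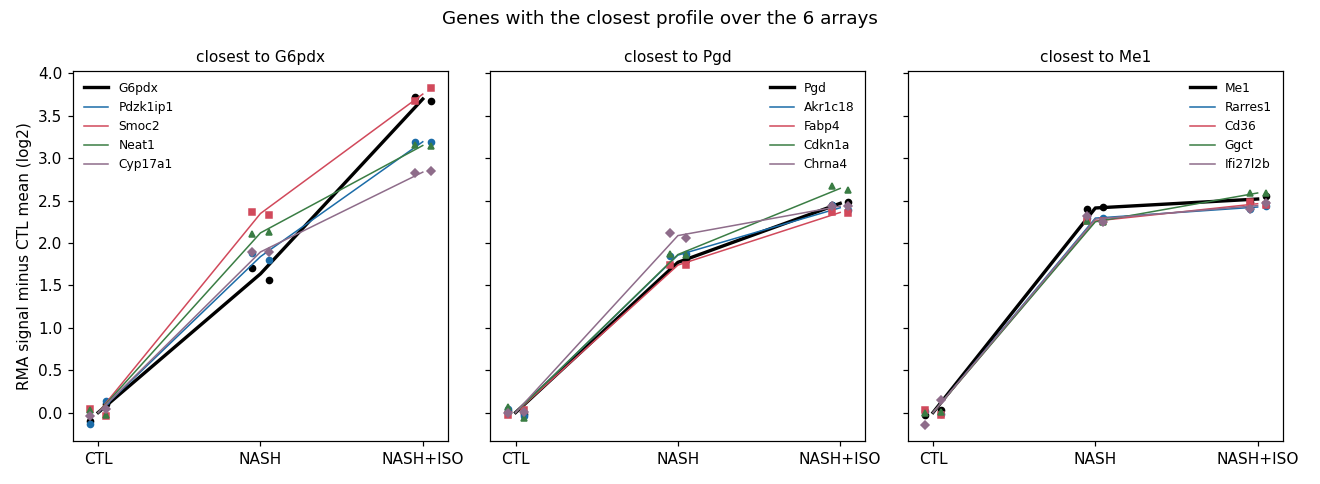
Array values minus the gene's CTL mean, in log2 units, for G6pdx, Pgd and Me1 (black) and the 4 genes with the closest profile to each; points are single arrays and lines join group means. The lines of Pgd and Me1 have close neighbours. In NASH+ISO the black line of G6pdx stands at 3.70, Smoc2 at 3.76, and Pdzk1ip1, Neat1 and Cyp17a1 at 3.19 or lower. The line of Smoc2 is drawn against CTL arrays that lie at the background guide.

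Markers of other cell types moved with the groups as well, and in whole liver fewer cells of a type and less RNA per cell cannot be told apart. From NASH to NASH+ISO, 0 of 12 macrophage markers rose and 8 fell, with summed linear signals on the arrays of 814 to 828 in CTL, 1067 to 1071 in NASH and 730 to 740 in NASH+ISO. Among those that fell, Timd4 lay below the background guide in CTL and NASH+ISO (2.78 and 2.75) and Cd68 in NASH+ISO (2.81). Itgam, which did not pass, lay below it in every group. Of 9 stellate cell markers 0 rose and 7 fell (931 to 938, 1223 to 1232 and 742 to 749 in that order of groups), and of 5 genes of dividing cells 0 rose and 3 fell (98.8 to 106, 489 to 504 and 274 to 290). Endothelial markers went up there in 5 of 8 and down in 0 (313 to 317, 306 to 310 and 441 to 443), and cholangiocyte markers up in 4 of 7 and down in 0 (215 to 217, 384 to 392 and 480 to 484), with Krt7 and Cftr below the background guide. In NASH against CTL, 5 of 12 macrophage, 5 of 9 stellate, 3 of 5 dividing-cell, 2 of 8 endothelial and 2 of 7 cholangiocyte markers rose, while 1, 2, 0, 2 and 2 fell. Of all genes, 24.7% rose and 28.3% fell there, so the endothelial and cholangiocyte counts lie near the shares of all genes. From NASH to NASH+ISO, 19.9% of all genes rose and 19.8% fell. Among 4 measured erythroid markers 1 fell against CTL in each treated group (130 to 134 in CTL, 60.6 to 61.0 in NASH and 58.5 to 58.9 in NASH+ISO). For the 5 neutrophil, 8 lymphocyte and 3 adipocyte markers measured, the counts that rose and fell in NASH+ISO against NASH were 1 and 0, 3 and 0, and 1 and 1. The neutrophil marker that rose, S100a8, and the adipocyte marker that fell, Adipoq, lay below the background guide in every group. Hepatocyte markers rose in 2 of 7 and fell in 1 (27720 to 27960 in CTL, 27240 in NASH and 27590 to 28070 in NASH+ISO). The part of these cells in the members' differences was not tested.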

How the data were processed

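Liver RNA of 3 groups (CTL, NASH, NASH+ISO) was read on 6 arrays, 2 per group. The log2 values used are those the authors deposited as a table, made with RMA in Affymetrix Expression Console, which corrects background, equalizes array distributions and gives 1 value per probe set. Workbooks that the authors deposited beside it hold a second set of log2 values (on average -0.0994 from the table, used as an alternative), gene symbols, which were used for names, and group means and SDs. The score columns of the workbooks, which the authors deposited, hold their signed fold change, and the p-value columns that the authors deposited hold their test; neither was used. The arrays hold no read depth, and their number limits the precision.

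The table has 45141 entries, and without 104 controls 45037 probe sets remained for the tests. By symbol, 38068 probe sets name 1 gene, 1253 several, 5654 none and 62 a date, and these 62 were left out of the gene counts. A gene's representative is its probe set with the highest mean, which gave 20726 genes. The fit was made in R 4.3.3 with limma 3.58.1, on all 6 arrays with 1 mean per group (3 residual and 4.01 prior degrees of freedom), and p-values were adjusted over all probe sets by Benjamini-Hochberg. It was tested on simulated data. Python 3.11.15 and pandas 2.3.3 served for tables and plots. Promoters come from RefSeq, GRCm38.p6, and both strands were searched for exact motifs.

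All 10 members are named, with every probe set. From each pathway list, genes at a fold of at least 2 and adjusted p under 0.05 in any comparison are named, at most 4 per list, and for G6pdx, Pgd and Me1 the 4 closest profiles among genes above the background guide. Some genes that this rule names are not reported here. The members and the lists of pathway genes and cell type markers were chosen with earlier results of these data known. Not measured by a probe set of their own were Trf, Ly6g, Retnlg, Hbb-bs, Hbb-bt and Plin1. Alternatives were other normalizations, priors, filters, fold thresholds, 1 value per gene, the workbook values, a replicate block and leaving out each array.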

Additional observations from a re-analysis of the deposited data

How the results depend on the processing

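Leaving out each array in turn kept the counts of member probe sets against CTL: 14 to 14 higher and 1 to 1 lower in both comparisons, with 8 to 8 past the fold in NASH against CTL and 8 to 9 in NASH+ISO against CTL. Between NASH+ISO and NASH, leaving out an array gave 7 to 7 probe sets higher, 4 to 4 lower, and 1 to 1 past the fold, with the second Tkt probe set (1451015_PM_at) the one lost. Its replicate block value, 0.13, had adjusted p = 0.0555. Replicate numbers did not pair the arrays (correlations of deviations 0.047, 0.047 and 0.092), and the replicate block gave 7 member probe sets higher and 4 lower there and changed no other call of one.

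With 1 probe set per gene, 8, 8 and 4 of the 10 members were higher from CTL to NASH, from CTL to NASH+ISO and from NASH to NASH+ISO (the order used here), 4 and 5 passed the fold against CTL, 2 were lower in NASH+ISO against NASH, 857, 543 and 186 of all genes passed the thresholds, and 11299, 9938 and 8615 the adjusted p. With a gene's probe sets averaged, members higher were again 8, 8 and 4, with 4 and 5 past the fold against CTL, and of all genes 609, 393 and 123 passed the thresholds and 11024, 9446 and 8377 the adjusted p. Both settings test fewer features, and why averaging gave lower counts than 1 probe set per gene was not tested. A fold of 1.5 gave 4673, 3183 and 1775 of all probe sets, and 4 member probe sets higher (G6pdx and 3 of Pgd) and 1 lower in NASH+ISO against NASH, and a fold of 3 gave 472, 287 and 71 of all. Without moderation, 10467 of all probe sets passed between NASH+ISO and NASH, against 16752.

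Signs turned for 4 probe sets of Tkt and Rpe and for Idh1. For Tkt in NASH against CTL, quantile normalization gave -0.0301 (1439443_PM_x_at) and -0.0202 (1451015_PM_at). The dim Tkt probe set 1436605_PM_at gave -0.0293, 0 and 0.0293 with the workbook values, and with 1 array left out between -0.0031 and 0.0306 in NASH+ISO against CTL, and between -0.0301 and 0.0035 in NASH+ISO against NASH. Idh1 gave -0.1337 in NASH+ISO against NASH with probe sets averaged, and Rpe 1416706_PM_at gave -0.1178 in NASH+ISO against CTL without the second NASH+ISO array and 0.2076 without the first. Under quantile normalization the differences of Me1 (1416632_PM_at), Pgls and Taldo1 between NASH+ISO and NASH were 0.19, 0.17 and 0.16 and passed, and with a prior that follows the mean level these, the other Me1 and the brighter Idh1 probe set passed. The brighter Rpe probe set passed in NASH+ISO against CTL with the workbook values (adjusted p = 0.039) and with that prior (0.0469), and the first Tkt probe set in NASH against CTL with that prior (0.00805). The second Tkt probe set passed in NASH against CTL with median centring (adjusted p = 0.0241), with the workbook values (0.0377), with that prior (0.00659) and with the dimmer probe sets left out (0.0442 and 0.032). The cause was not tested.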
